A study of Mus musculus with 4 samples.

Results

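The mitochondrial ribosomal proteins are the nuclear-encoded proteins of the ribosome inside mitochondria. Their genes were chosen by symbol, as *Mrpl* or *Mrps* followed by a number and at most a letter from a to c, a rule that uses no measured value, although the group was picked for description with earlier results of these data known. The rule found 78 of 55335 annotated genes, each of them protein-coding, on 17 chromosomes. RNA was measured in oocytes of C57BL/6 mice with Smart-Seq2, a method for small RNA inputs that copies whole transcripts. It compared 2 control libraries with 2 mutant libraries, whose descriptions carry the tag MII. The mutation is a base change at the site where exon 3 of *Ezh2* is alternatively spliced, and *Ezh2* encodes the histone H3 lysine 27 methyltransferase of Polycomb repressive complex 2. The series names a long-form and a short-form mouse, but the label of the mutant oocytes names neither. The sources used here do not give the age or number of the animals, nor how many oocytes went into a library.

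The mitochondrial ribosome translates only the few messenger RNAs of the mitochondrial genome, all of which encode subunits of the oxidative phosphorylation system. Its large subunit joins amino acids and carries the exit tunnel, and its small subunit reads the messenger RNA. Many of its proteins descend from bacterial ribosomal proteins, while others are specific to mitochondria. All of them are translated in the cytosol and imported. Oocytes hold a very large number of mitochondria, which the embryo inherits.

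Paired values are given below in the order of replicate 1 and replicate 2. The libraries held between 25090032 and 26617816 counts. All 16 oocyte marker genes were detected in each library, with a summed level of 32166 to 37808 CPM (counts scaled to a common library size, after TMM scaling). Markers of other cells differed between the libraries. Of 25 cumulus and granulosa genes, *Serpine2*, *Hmgcs1*, *Cyp19a1* and *Nr5a2* together stood at 1540 to 2058 CPM in every library. The other 21, a division made after the values were seen, summed to 37.5 and 3.14 CPM in controls 1 and 2, to 436 CPM in mutant 1 and to 17.1 CPM in mutant 2, with 11, 9, 19 and 13 of them detected. *Amh*, *Amhr2* and *Inhbb* were at 0 in both controls and in mutant 2 but not in mutant 1. Of the 25 genes 14 had enough counts to test, and 12 of these had a positive log2 fold change. Among them DESeq2, a test for counts, called *Has2* higher and *Cyp19a1* lower in the mutants. The 18 leukocyte markers summed to 11.4, 13.3 and 22.4 CPM in controls 1 and 2 and mutant 1 and to 196 CPM in mutant 2, and *Ptprc* was at 0 in both controls. Whether each library is a separate animal is not stated, and a p-value here reflects the spread among these 4 libraries, which may be technical. In such samples fewer cells of a type and less RNA per cell cannot be told apart.

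The messenger RNAs of this one ribosome were present at very unequal levels. On the deposited TPM scale, which corrects for transcript length, mean levels over the 4 libraries ran from 0.130 for *Mrpl20* to 378 for *Mrpl24*, with a median of 7.73. The 6 most abundant genes held 53.2% of the summed TPM of all 78. *Mrpl24*, a homolog of a bacterial protein of the large subunit, was at 372 and 367 TPM in controls 1 and 2 and at 406 and 368 TPM in mutants 1 and 2. *Mrps14*, a bacterial homolog in the head of the small subunit, followed at 353 and 348 TPM in the controls and 198 and 199 TPM in the mutants. *Mrpl18*, of the central protuberance, had a mean of 176 TPM, and *Mrpl3*, which reaches towards the peptidyl transferase centre, one of 163 TPM. *Mrps33* and *Mrpl40*, both specific to mitochondria, had means of 105 and 96.2 TPM. In the small subunit *Mrps23* (52.3 TPM) and *Mrps31* (39.5 TPM), also specific to mitochondria, came next.

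**Figure D1:**
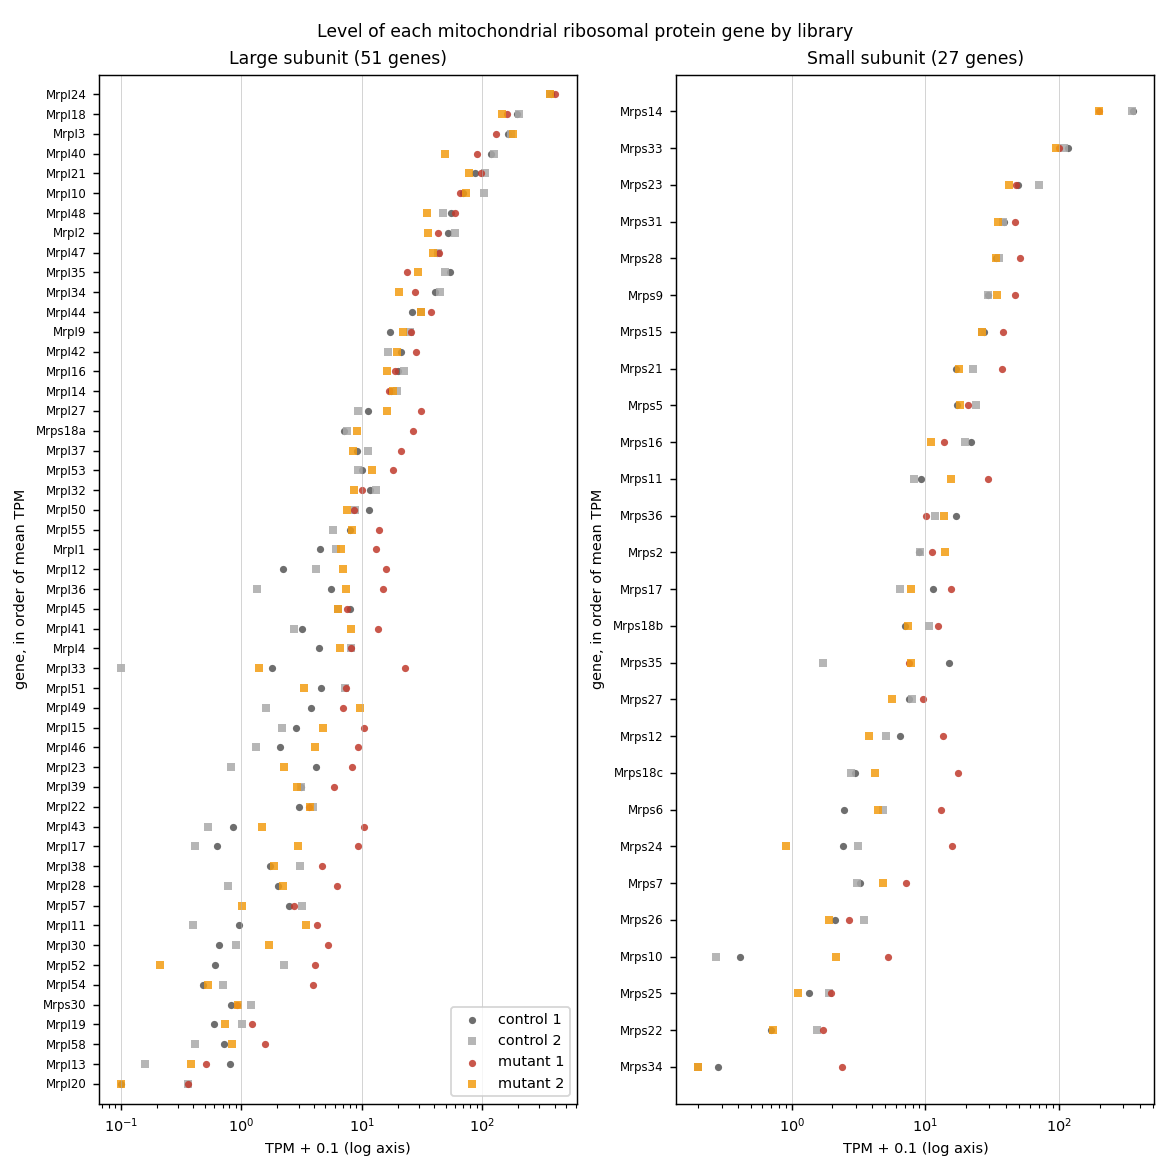
Deposited TPM (plus 0.1, log axis) of each of the 51 large-subunit and 27 small-subunit genes, in order of mean TPM, with a point for each library. The genes span from 0.130 to 378 in mean TPM, and mutant 1 (red circles) lies to the right of the other libraries for many of the scarce genes.

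At the other end of the order stood *Mrpl20*, *Mrpl13*, *Mrps34*, *Mrpl58*, *Mrpl19* and *Mrps30*, each with a mean of 0.875 TPM or less. *Mrpl58* encodes a peptidyl-tRNA hydrolase built into the large subunit, which rescues stalled ribosomes. It had counts of 2 and 3 in control oocytes against 14 and 3 in mutant oocytes. Bacterial homologs (46 genes) and mitochondria-specific proteins (32 genes) had median levels of 10.45 and 6.93 TPM. The 51 large-subunit genes, counting *Mrps30* and *Mrps18a*, which sit there despite their symbols, had a median of 7.25 TPM and the 27 small-subunit genes one of 10.2 TPM. *Mrps36* matched the rule but is now known as a part of the 2-oxoglutarate dehydrogenase complex. It was at 2.97 CPM on average and did not pass the test (log2 fold change -0.34).

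Mutant oocytes were set against control oocytes to ask which of these genes changed with the *Ezh2* mutation. Of the 78 genes 72 had enough counts to test, and 1 of them passed (quasi-likelihood test in edgeR, with p adjusted by Benjamini-Hochberg over all genes tested and a threshold of 0.05). That gene, *Mrps14*, was lower. Over all 15493 tested genes 3.75% passed, 1.77% higher and 1.98% lower, so 1 gene of 72 is not above the background. None passed as higher with edgeR, where 9 lay higher and 8 lower (*Mrps14* among them) at an unadjusted p under 0.05. Over all tested genes 12.5% lay higher and 10.4% lower at that threshold, and the 72 genes did not exceed this by more than 1 gene in either direction. DESeq2 called 2 of the 72 higher and 4 lower, where it called 6.56% of all genes higher and 6.3% lower. With limma the counts were 0 and 1 (2.4% and 2.36% of all genes), and with edgeR on the RSEM counts also 0 and 1 (1.69% and 2.2%). The SE of a log2 fold change among the 72 was between 0.14 and 1.05.

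*Mrps14* (ENSMUSG00000058267.13, chromosome 1, 160195215 to 160202170, plus strand, mm10) stood at 112 and 99.4 CPM in control oocytes against 53.6 and 57.9 CPM in mutant oocytes. Both mutants thus lay at about the same level, well below both controls. The control mean was 106 ± 8.72 CPM and the mutant mean 55.7 ± 3.04 CPM (± SD, n = 2 libraries), so that *Mrps14* fell 1.89-fold (log2 fold change -0.92, SE 0.15, edgeR adjusted p = 0.0338). With the RSEM expected counts the fall was of the same size (log2 fold change -0.92, adjusted p = 0.0289). No annotated exon of another gene overlaps *Mrps14*, and no near-identical copy was found among the annotated transcripts. It did not pass without control 1 (adjusted p = 0.284), without control 2 (adjusted p = 0.228) or without mutant 2 (adjusted p = 0.0500407), while its log2 fold change lay between -1.05 and -0.83 over the 13 alternatives. A fit that leaves out a library has 1 library in that arm, which is assumed to vary like the 2 of the other group. Between the mutants it differed by less than from either control, and it was 1 of the 10 tested genes of the set that were lower in mutant 1 than in mutant 2.

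Other abundant genes lay lower in both mutants without passing the test. *Mrpl18* stood at 92.5 and 85.3 CPM in control oocytes against 55.6 and 55.1 CPM in mutant oocytes, with a log2 fold change of -0.68 (SE 0.15, edgeR adjusted p = 0.0607). The groups did not overlap for *Mrpl18*, whose exons overlap those of *Tcp1* on the opposite strand and which has a processed copy. *Mrpl35*, a bacterial homolog of the large subunit, stood at 85.5 and 71.9 CPM in control oocytes against 38.2 and 52.4 CPM in mutant oocytes (log2 fold change -0.80, adjusted p = 0.0848). *Mrpl40*, of the central protuberance, stood at 48.0 and 46.2 CPM in control oocytes against 30.8 and 17.5 CPM in mutant oocytes (log2 fold change -0.96, SE 0.29, adjusted p = 0.109). Its mutant libraries differed more from each other than its controls did, with mutant 2 the lowest. Without mutant 1 its log2 fold change was -1.45. That fit compares mutant 2 alone with the controls and takes the spread from the controls only, so its adjusted p of 0.000399 says little about the mutant group. Without mutant 2 the log2 fold change was -0.62 (adjusted p = 0.177).

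*Mrpl45*, which holds the ribosome to the inner membrane at the tunnel exit, stood at 19.7 and 14.8 CPM in control oocytes against 10.8 and 8.75 CPM in mutant oocytes in the count matrix (log2 fold change -0.82, adjusted p = 0.146). The RSEM tables did not show this. There its log2 fold change was -0.26 (adjusted p = 0.682), and on the TPM scale it was at 7.97 and 6.29 in controls and 7.45 and 6.23 in mutants, so the groups overlapped. *Mrpl3* was at 95.8 and 92.3 CPM in control libraries, 65.8 CPM in mutant 1 and 88.3 CPM in mutant 2, so that only mutant 1 stood clearly apart. *Mrpl24*, the most abundant, stood at 147 and 134 CPM in control oocytes against 127 and 119 CPM in mutant oocytes (log2 fold change -0.19, adjusted p = 0.487), and *Mrps33* had a log2 fold change of -0.33 (adjusted p = 0.308). *Mrps23* stood at 8.50 and 11.0 CPM in control oocytes against 7.53 and 4.88 CPM in mutant oocytes (log2 fold change -0.65, adjusted p = 0.327).

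**Figure D2:**
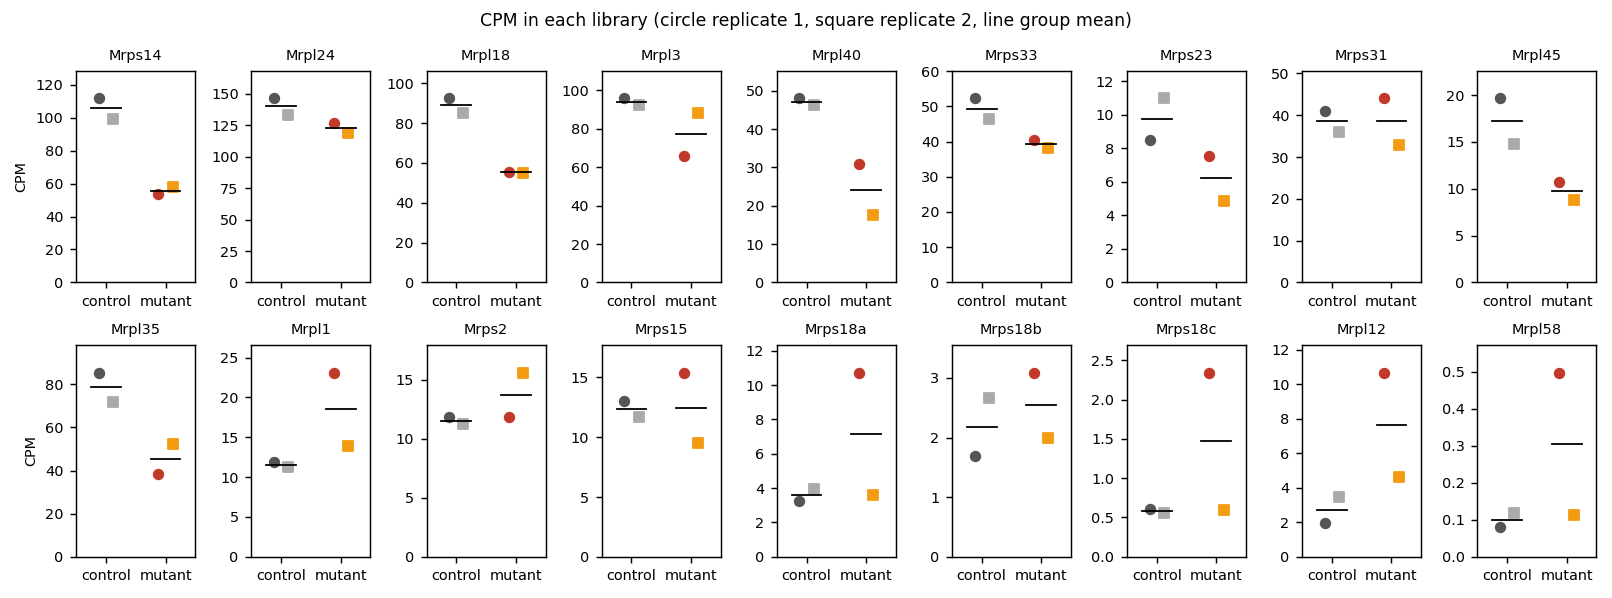
CPM of 18 named genes in each library, with an axis from 0 for each gene, circles for replicate 1, squares for replicate 2 and a line at each group mean. *Mrps14* and *Mrpl18* have mutant libraries close together below both controls, while for *Mrpl1*, *Mrps18a*, *Mrps18c*, *Mrpl12* and *Mrpl58* mutant 1 stands above the other 3 libraries.

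The change went with the level. Among the 25 genes that averaged at least 10 CPM over the 4 libraries, 18 had a negative log2 fold change and the median was -0.29, beside -0.04 over the 6532 tested genes at that level. Of these 25, 15 were lower in both mutants than in both controls and 2 were higher. Among all tested genes 25.7% lay lower in this way and 28.8% higher, and at this level 32.2% lay lower and 25.8% higher. Among the 47 tested genes below 10 CPM the picture was the opposite, with 36 positive log2 fold changes and a median of 0.42, beside 0.18 over the 8961 genes at that level. Of these 47, 15 did not overlap and were higher and 4 did not overlap and were lower, where 31.1% and 21.0% of genes at that level did so. Both the 36 and the 15 include *Mrps10*, *Mrpl43* and *Mrpl30*, for which neither control reached the count needed for testing. These entered the test through their mutant libraries, so they could count only as higher. Over the 72 genes the median log2 fold change was 0.10, beside 0.05 over all tested genes.

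**Figure D3:**
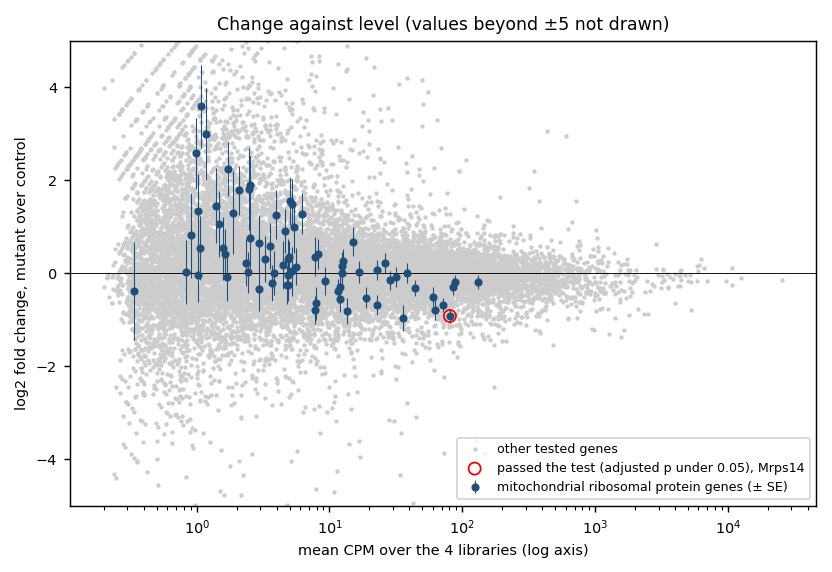
Log2 fold change of mutant over control against mean CPM (log axis) for the 72 tested genes (blue, with SE) and the other tested genes (grey). The blue points lie mostly below 0 from 10 CPM upward and mostly above 0 under 10 CPM, and *Mrps14*, ringed, is the gene that passed.

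The summed levels show the same division. The 25 genes of at least 10 CPM summed to 1109 and 1066 CPM in the controls and to 877 and 817 CPM in mutants 1 and 2, lower in both mutants. All tested genes at that level summed to 1048800 and 971413 CPM in the controls and to 913091 and 971903 CPM in the mutants. There mutant 1 alone lay below both controls. The 47 below 10 CPM summed to 146 and 137 CPM in the controls, to 245 CPM in mutant 1 and to 133 CPM in mutant 2. For these scarce genes mutant 1 alone stood apart, and mutant 2 lay just below the controls. All tested genes below 10 CPM summed to 22272 and 23462 CPM in the controls and to 28744 and 24505 CPM in the mutants. On the TPM scale all 78 genes summed to 2285 and 2366 in the controls and to 2382 and 1926 in mutants 1 and 2.

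Only 2 genes of at least 10 CPM were higher in both mutants than in both controls, and neither passed. *Mrpl1*, the protein of the mobile L1 stalk, stood at 11.8 and 11.3 CPM in control oocytes against 23.1 and 13.9 CPM in mutant oocytes (log2 fold change 0.68, adjusted p = 0.246). *Mrps2*, a bacterial homolog of the small subunit, stood at 11.8395 and 11.2 CPM in control oocytes against 11.8606 and 15.6 CPM in mutant oocytes (log2 fold change 0.25, adjusted p = 0.630), so mutant 1 was at the control level. *Mrps15*, another bacterial homolog of the small subunit, was at 13.0 and 11.7 CPM in the controls and on either side of them in the mutants, at 15.4 and 9.50 CPM. *Mrps31* was likewise at 44.1 CPM in mutant 1 and 33.0 CPM in mutant 2, around the controls at 41.1 and 36.0 CPM.

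The largest fitted changes were among scarce genes, which are named here after their values were seen. *Mrps10*, a small-subunit protein with a bacterial homolog, had counts of 6 and 2 in control oocytes against 82 and 28 in mutant oocytes (log2 fold change 3.59, SE 0.89, edgeR adjusted p = 0.0758). *Mrpl43*, specific to mitochondria, had counts of 8 and 5 in control oocytes against 101 and 16 in mutant oocytes (log2 fold change 2.99, adjusted p = 0.138). *Mrpl30*, a bacterial homolog, had 7 counts in each control library against 70 and 24 in mutant oocytes (log2 fold change 2.58, adjusted p = 0.112). In these 3 genes both mutants lay above both controls, but neither control reached the 0.376 CPM of the count filter, so they entered the test through their mutant libraries. *Mrps10* and *Mrpl30* have processed copies, and *Mrpl43* overlaps *Twnk* on the opposite strand. *Mrpl11*, at the base of the stalk that binds translation factors, had counts of 16 and 14 in control oocytes against 104 and 53 in mutant oocytes (log2 fold change 2.24, adjusted p = 0.0831). *Mrpl46*, of the central protuberance, had counts of 35 and 18 in control oocytes against 157 and 63 in mutant oocytes (log2 fold change 1.90, adjusted p = 0.139). Its exons overlap those of *Mrps11*, also of the set, on the opposite strand. *Mrps11* had counts of 101 and 81 in control oocytes against 332 and 157 in mutant oocytes, so the 2 may not be separate.

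*Mrpl12*, the stalk protein that is also known to bind the mitochondrial RNA polymerase, stood at 1.93 and 3.49 CPM in control oocytes against 10.7 and 4.62 CPM in mutant oocytes (log2 fold change 1.495, adjusted p = 0.164). The *Mrps18* paralogs all descend from a bacterial small-subunit protein but sit at different places. In the classes used here *Mrps18c* is counted as a bacterial homolog, and *Mrps18a* and *Mrps18b* as mitochondria-specific. *Mrps18a*, which joined the large subunit, was at 3.26 and 3.93 CPM in the controls, 10.7 CPM in mutant 1 and 3.57 CPM in mutant 2. *Mrps18c*, in the bacterial position, was at 0.604 and 0.556 CPM in the controls, 2.34 CPM in mutant 1 and 0.601 CPM in mutant 2. For both, mutant 2 was at the control level and mutant 1 above it. *Mrps18b* stood at 1.69 and 2.66 CPM in control oocytes against 3.09 and 1.99 CPM in mutant oocytes, overlapping. The adjusted p of the 3 paralogs lay between 0.339 and 0.838, and *Mrps18b* and *Mrps18c* each have a processed copy elsewhere in the genome and share exon sequence with another annotated gene.

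The 6 genes too scarce to test are *Mrpl20*, *Mrpl33*, *Mrpl52*, *Mrpl54*, *Mrpl58* and *Mrps34*. In 5 of them mutant 1 had the most counts, between 14 and 52, against at most 6 in any other library. *Mrpl33* had counts of 4 and 0 in control oocytes against 52 and 6 in mutant oocytes. *Mrpl20* had counts of 14 and 8 in control oocytes against 6 and 3 in mutant oocytes, the other way round.

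Setting each mutant library against both controls separated the mutants. In mutant 1 the median log2 ratio (on CPM plus 1) of the 72 genes was 0.35, with 48 of them positive, beside 0.04 over all tested genes. In mutant 2 it was -0.21, with 25 positive, beside 0.02 over all tested genes. Over all 78 genes, with no count filter, the medians were 0.38 and -0.18. Mutant 1 exceeded mutant 2 for 62 of the 72 genes (86.1%), where it did so for 51.7% of all tested genes. With the RSEM counts the medians were 0.32 and -0.17. These are descriptions of 1 library against 2, with no test.

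**Figure D4:**
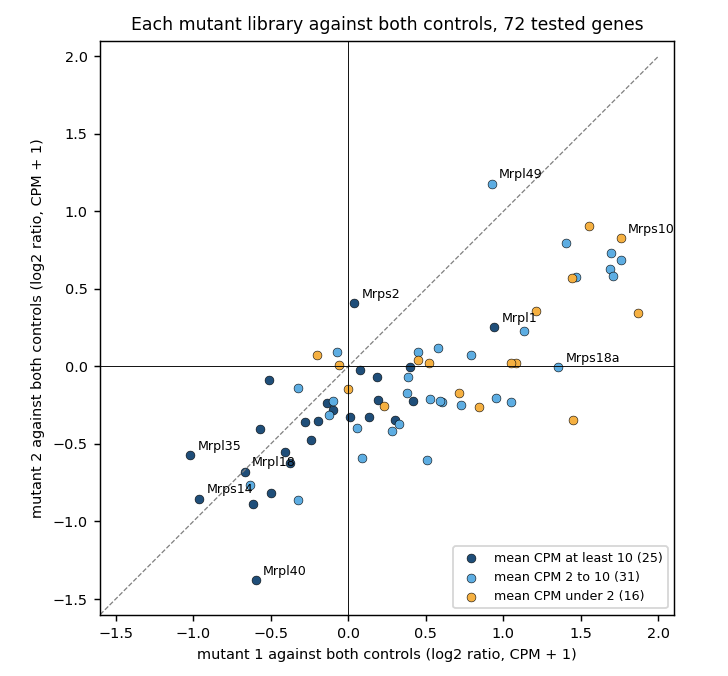
Log2 ratio of mutant 1 (x axis) and of mutant 2 (y axis) against both controls for the 72 tested genes, coloured by mean CPM, with a dashed line of equal ratios. Of the 72 points, 62 have a higher level in mutant 1 than in mutant 2 and lie below the line, and the abundant genes (dark blue) gather at lower left.

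A gap between the mutants was seen in each level class. For genes of at least 10 CPM the medians were -0.19 in mutant 1 and -0.35 in mutant 2, and mutant 1 was the higher for 20 of 25. For the 31 genes from 2 to 10 CPM they were 0.58 and -0.17, and for the 16 below 2 CPM 0.95 and 0.02. In these lower classes mutant 1 was the higher for 28 of 31 and 14 of 16 genes. Over all tested genes of the same classes the medians were -0.05, 0.15 and 0.13 in mutant 1 and -0.02, 0.02 and 0.08 in mutant 2. Mutant 1 was above mutant 2 for 44.8%, 60.1% and 53.7% of them. The rank correlation between mean CPM and the ratio was -0.59 in mutant 1 and -0.50 in mutant 2 across the 72 genes, and -0.17 and -0.09 across all tested genes. These correlations are across genes that share the same libraries, and the mean level includes the mutant libraries themselves. Mutant 1 is also the library with 436 CPM of cumulus markers, and the part of such cells in its level of these genes was not tested. Among the controls, control 1 held more of those markers and was above control 2 for 47 of the 72 genes, beside 50.1% of all tested genes. Mutant 2 also held more of them than control 2 (17.1 against 3.14 CPM), and its genes of the set summed to 951 CPM against 1204 CPM in control 2. The leukocyte markers, by contrast, stood highest in mutant 2, at 196 CPM against 22.4 CPM in mutant 1. No link between either kind of marker and the genes of the set was tested.

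The 46 tested large-subunit genes had medians of 0.28 in mutant 1 and -0.17 in mutant 2, and the 26 small-subunit genes 0.39 and -0.22. The 44 tested bacterial homologs had medians of 0.36 and -0.21 and the 28 mitochondria-specific genes 0.33 and -0.19. The only gene that passed, *Mrps14*, is a bacterial homolog of the small subunit. Crossing both divisions, the medians in mutant 1 were 0.03 for large-subunit bacterial homologs, 0.48 for large-subunit mitochondria-specific genes, 0.55 for small-subunit bacterial homologs and 0.14 for small-subunit specific genes. In the small subunit 13 of 16 bacterial homologs and 3 of 10 specific genes had a positive log2 fold change. In the large subunit the order was the other way, with 14 of 28 bacterial homologs and 13 of 18 specific genes. No difference between these classes was tested.

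Sequence upstream of the start sites was read from RefSeq (GRCm38.p6), where 69 of the 78 genes had an entry. *Mrpl13*, *Mrpl15*, *Mrpl19*, *Mrpl38*, *Mrpl4*, *Mrpl54*, *Mrps28*, *Mrps34* and *Mrps35* had none. In windows from 250 bases before to 50 after the start, on either strand, the ETS-factor letters CCGGAAG were found in 26 of the 69 genes (37.7%), against 9.93% of 27025 genes with an entry. The YY1 letters AAGATGGCG were in 11.6% against 1.64%, and the NRF1 letters GCGCATGC in 11.6% against 3.05%. The SP/KLF letters GGGCGGGG were in 23.2% against 19.6%, and the TATA box letters TATAAA in 7.25% against 15.7%. The CCAAT box letters CCAAT (39.1% against 41.1%) and the E-box letters CACGTG (7.25% against 8.09%) were about as frequent as elsewhere. The median GC content of the windows was 58.7%, against 52.7% over all windows. The ETS letters stood in 5 of 24 genes of at least 10 CPM and in 18 of 41 tested genes below it. A match of letters is a description and does not show binding.

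The 250 bases upstream are printed for the genes named by the rule whose window holds no annotated exon, so that the gene that fell (*Mrps14*) can be set beside 2 that lay lower without passing (*Mrpl45*, *Mrps23*), 1 that lay higher (*Mrps2*) and 1 that was barely detected (*Mrpl58*). Capitals mark matches to the ETS, YY1, NRF1 or SP/KLF letters. They lie at chr1:160194965-160195214, chr11:97315466-97315715, chr11:88204138-88204387, chr2:28467816-28468065 and chr11:115403502-115403751, all on the plus strand of GRCm38.p6. *Mrps14* holds 1 SP/KLF match and *Mrpl58* 1 ETS match, and the other 3 windows hold none of the 4 motifs.
Mrps14: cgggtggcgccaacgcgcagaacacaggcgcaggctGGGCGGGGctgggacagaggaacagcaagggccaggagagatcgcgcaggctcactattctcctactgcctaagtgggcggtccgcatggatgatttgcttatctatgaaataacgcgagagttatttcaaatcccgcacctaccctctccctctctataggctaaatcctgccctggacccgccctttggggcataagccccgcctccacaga
Mrpl45: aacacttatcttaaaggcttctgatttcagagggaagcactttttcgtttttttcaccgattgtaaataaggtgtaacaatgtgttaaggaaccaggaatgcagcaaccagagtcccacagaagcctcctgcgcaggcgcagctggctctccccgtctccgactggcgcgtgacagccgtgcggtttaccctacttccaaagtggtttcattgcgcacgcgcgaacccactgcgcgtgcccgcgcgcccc
Mrps23: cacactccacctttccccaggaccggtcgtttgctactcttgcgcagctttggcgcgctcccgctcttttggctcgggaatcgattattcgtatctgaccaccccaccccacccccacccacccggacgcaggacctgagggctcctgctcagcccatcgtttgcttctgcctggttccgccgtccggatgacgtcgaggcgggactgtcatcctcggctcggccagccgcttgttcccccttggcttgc
Mrps2: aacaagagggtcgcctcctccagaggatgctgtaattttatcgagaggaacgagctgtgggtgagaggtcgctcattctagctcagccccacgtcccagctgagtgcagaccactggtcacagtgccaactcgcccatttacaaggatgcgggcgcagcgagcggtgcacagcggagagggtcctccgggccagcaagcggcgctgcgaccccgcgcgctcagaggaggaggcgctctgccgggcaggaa
Mrpl58: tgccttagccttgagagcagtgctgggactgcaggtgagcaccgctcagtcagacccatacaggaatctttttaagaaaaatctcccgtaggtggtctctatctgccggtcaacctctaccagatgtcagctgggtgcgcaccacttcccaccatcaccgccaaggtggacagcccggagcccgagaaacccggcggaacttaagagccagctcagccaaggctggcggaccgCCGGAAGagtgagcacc

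The partners of the mitochondrial ribosome mostly did not pass the test either. Of 5 ribosomal proteins with other names none passed with edgeR, DESeq2 or limma, and 0 had an unadjusted p under 0.05, with medians of 0.37 in mutant 1 and -0.01 in mutant 2. *Chchd1* had counts of 58 and 38 in control oocytes against 208 and 65 in mutant oocytes (log2 fold change 1.35, adjusted p = 0.252), and *Aurkaip1* had a log2 fold change of 0.85 (adjusted p = 0.408). *Ptcd3*, a pentatricopeptide repeat protein of the small subunit, had one of -0.28 (adjusted p = 0.499). None of 13 tested mitochondrial translation factors passed with edgeR, DESeq2 or limma (2 higher and 1 lower at an unadjusted p under 0.05), with medians of -0.0026 and -0.06 in mutants 1 and 2. *Tufm*, the elongation factor that delivers aminoacyl-tRNA, had counts of 5 and 3 in control oocytes against 43 and 26 in mutant oocytes (log2 fold change 2.93, adjusted p = 0.0874), and it entered the test through its mutant libraries, since neither control reached the count filter. The inner-membrane insertase gene *Oxa1l* had a log2 fold change of 1.64 (adjusted p = 0.126) and *Gfm2*, for an elongation factor homolog that acts in ribosome recycling, one of -0.60 (adjusted p = 0.158).

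Of 22 tested genes of mitoribosome assembly and ribosomal RNA modification none passed with edgeR (2 higher and 3 lower at an unadjusted p under 0.05), while DESeq2 called *Mterf3* and *Mtg2* higher and *Fastkd2* lower. *Fastkd2*, which binds the large ribosomal RNA, had counts of 633 and 504 in control oocytes against 307 and 272 in mutant oocytes (log2 fold change -1.11, adjusted p = 0.0612). *Mterf3* had counts of 1048 and 880 in control oocytes against 1874 and 1614 in mutant oocytes (log2 fold change 0.72, adjusted p = 0.0760). In both genes the groups did not overlap, in opposite directions. *Mtg2*, a GTPase of large-subunit assembly, had counts of 5 and 9 in control oocytes against 59 and 41 in mutant oocytes (log2 fold change 2.68, adjusted p = 0.0771), and it too reached the count filter in its mutant libraries alone.

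Of 17 tested genes listed for mitochondrial aminoacyl-tRNA synthesis 1 fell and none rose with edgeR (1 higher and 2 lower at an unadjusted p under 0.05). Most encode synthetases, but *Gatb* and *Gatc* encode parts of a tRNA amidotransferase, and *Gars* and *Kars* also serve the cytosol. *Vars2*, which charges the valine tRNA, had counts of 327 and 403 in control oocytes against 68 and 126 in mutant oocytes (log2 fold change -2.03, edgeR adjusted p = 0.0496). DESeq2 and limma called *Vars2* lower as well, while with the RSEM counts it did not pass (adjusted p = 0.168). *Hars2* had counts of 2 and 1 in control oocytes against 10 and 32 in mutant oocytes (log2 fold change 3.59, adjusted p = 0.122), with neither control at the count filter, and *Fars2* had a log2 fold change of -0.59 (adjusted p = 0.190). Of 13 genes of mitochondrial transcription and messenger RNA stability none passed with edgeR (1 higher and 0 lower at an unadjusted p under 0.05), and DESeq2 called *Lrpprc* higher. *Lrpprc*, which stabilises mitochondrial messenger RNAs, had counts of 579 and 967 in control oocytes against 1600 and 1348 in mutant oocytes (log2 fold change 0.80, adjusted p = 0.137), and *Tfb2m* and *Mterf1a* had log2 fold changes of -0.37 and -0.45 (adjusted p = 0.336 and 0.351).

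**Figure D5:**
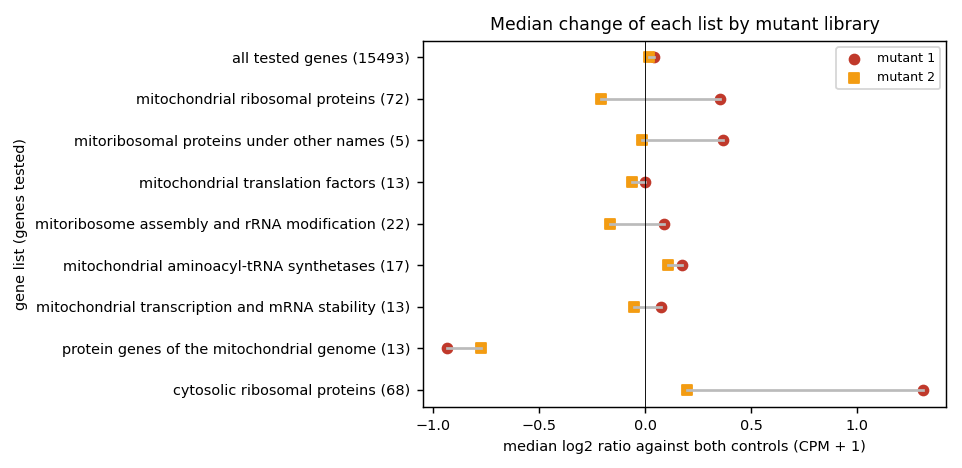
Median log2 ratio of mutant 1 (red circles) and mutant 2 (orange squares) against both controls for all tested genes and 8 gene lists, with the number of genes tested. The mitochondrial ribosomal proteins lie at 0.35 and -0.21, the cytosolic ribosomal proteins at 1.31 and 0.20, and the protein genes of the mitochondrial genome at -0.94 and -0.77.

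The templates and the cytosolic counterpart behaved differently by library. For the 13 protein genes of the mitochondrial genome, the messages this ribosome translates, the medians were -0.94 in mutant 1 and -0.77 in mutant 2, so both mutants lay low. Their summed level was 24126 and 17567 CPM in the controls and 12706 and 14499 CPM in the mutants. Control 1 was above control 2 for all 13, and by this sum the controls were further apart than the mutants. Of the 13, *mt-Nd3*, *mt-Nd4l* and *mt-Co3* fell in the count matrix with edgeR. At an unadjusted p under 0.05 12 of the 13 lay lower, DESeq2 called 11 lower and limma 3, and for 12 both mutants lay below both controls. *mt-Nd3* had counts of 2051 and 1660 in control oocytes against 58 and 47 in mutant oocytes (log2 fold change -5.27, edgeR adjusted p = 0.00047), and *mt-Nd4l* and *mt-Co3* had log2 fold changes of -4.95 and -1.52. With the RSEM counts none of these 3 passed, *mt-Nd3* being at -2.14 (adjusted p = 0.0585), and *mt-Atp6* alone passed as lower. For 68 tested cytosolic ribosomal protein genes they were 1.31 and 0.20, and mutant 1 was above mutant 2 for all 68. None of the 68 passed with edgeR or limma, 29 lay higher and 1 lower at an unadjusted p under 0.05, and DESeq2 called 21 higher and 1 lower. The mitochondrial ribosomal proteins thus had the same order of the mutants as the cytosolic ones, at a smaller size, with mutant 2 below the controls rather than above them. These comparisons share their control and mutant libraries, and no difference between the lists was tested.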

How the data were processed

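RNA of mouse oocytes was measured by Smart-Seq2 in 4 libraries, grouped by title into 2 control and 2 mutant. The submitters' processing notes name cutadapt 1.16, STAR, RSEM and the build mm10. The sources used here give neither settings, nor strand handling, nor what program counted the matrix. The authors deposited raw counts per gene in one matrix and, per library, RSEM-style tables with expected counts, TPM, FPKM and other values (lengths in bases), per the file headers. FPKM was not tested.

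The counts were tested over all genes in R 4.3.3 with edgeR 4.0.16 (TMM, filterByExpr with a minimum count of 10, glmQLFit and glmQLFTest, genotype only, Benjamini-Hochberg over 15493 genes), with 2 residual degrees of freedom, and checked with the deposited expected counts, rounded. The script was tested on simulated data. Group means carry the SD of 2 libraries; the SE is the size of the log2 fold change over the square root of F. Ratios of single mutant libraries use log2 of CPM + 1. Alternatives included DESeq2 1.42.0 and limma 3.58.1. Coordinates are from GENCODE M21, and copies (at least 95% identity over at least 100 bases and 50% of a transcript) were sought with BLAST 2.17.0.

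The genes and lists were chosen with earlier results of these data known. Named genes were those past the threshold, the 4 of each subunit with the highest TPM, the 5 largest non-overlapping changes each way and the 3 largest gaps between mutants each way (at least 10 CPM), the *Mrps18* paralogs, *Mrpl12*, *Mrpl58*, and 3 genes per other list with the smallest adjusted p. Overlapping genes and genes with copies are uncertain. The totals of 25090032 to 26617816 counts bear on counting error alone, and they do not bound it, since amplified reads are not independent molecules.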

Additional observations from a re-analysis of the deposited data

How the results depend on the processing

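The 581 genes that passed over all genes became 1993 with DESeq2, 1322 with no low-count filter and 1213 with the replicate block, and between 22 (without control 1) and 1688 (without mutant 1) with a library left out. It was 27 without control 2 and 1025 without mutant 2. Of the mitochondrial ribosomal protein genes, 2 of 72 passed as higher with DESeq2 (*Mrpl11*, *Mrps10*). With no filter 1 of 78 passed as higher and with the replicate block 1 of 72 (*Mrps10* in both). Over all genes 6.56% passed as higher with DESeq2, 749 of 26406 genes with no filter and 730 of 15493 with the block. Passing as lower were 4 with DESeq2 and 4 with no filter (*Mrpl18*, *Mrpl35*, *Mrpl40*, *Mrps14* in both). Among genes of at least 10 CPM 2 of 25 passed as lower (*Mrpl18*, *Mrps14*), and with the replicate block 2 of 72 (*Mrpl40*, *Mrps14*). Over all genes 6.3% passed as lower with DESeq2, 573 of 26406 with no filter, 358 of 6541 at 10 CPM and 483 of 15493 with the block. The calls also changed in both directions when a library was left out, a fit with 1 library in that group. Without mutant 2 genes of the set were gained as higher, and without mutant 1 *Mrpl40* was gained as lower. The log2 fold change of *Mrps10* was 2.65 without mutant 1 and 4.13 without mutant 2. That of *Mrpl43* was 1.17 and 3.75. Without either control no gene of the set passed, and with DESeq2 12.9% of all tested genes passed. The median log2 fold change lay between -0.30 (without mutant 1) and 0.45 (without mutant 2), and was 0.20 over genes with no overlapping gene or copy, an alternative chosen after seeing the data. The median ratio of mutant 1 turned to -0.13 among genes of at least 10 CPM. *Mrps31*, near 0, was 0.045 with upper quartile scaling, 0.10 with total counts and 0.048 among genes of at least 10 CPM, and between -0.24 and 0.18 with a library left out. *Mrps15*, also near 0, was -0.0059 with DESeq2, -0.028 with limma, -0.0061 with RLE factors, -0.026 with the replicate block and -0.029 with the RSEM counts, and between -0.40 and 0.31 with a library left out. *Mrps18a* lay between -0.027 and 1.57 and *Mrps18b* between -0.14 and 0.54 with a library left out. *Mrps14* passed in 10 of 13 alternatives. The cause of these shifts was not tested. The labels do not say that a replicate number marks a shared animal or day, and with 2 numbers the correlation of deviations (0.17) is only a hint, so the block is given here for completeness.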

Other observations

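The count matrix and the RSEM tables, both deposited by the authors, gave the same sign of change for 68 of the 71 genes tested in both, and log2 fold changes within 0.25 of each other for 65. The largest difference, 0.88, was for *Mrpl34*, at -0.17 in the matrix and -1.05 with the RSEM counts. *Mrpl24* had 3640, 3366, 3580 and 3163 counts in controls 1 and 2 and mutants 1 and 2 in the matrix, and 5716, 5253, 5810 and 5024 in the RSEM tables. Its exons overlap those of *Rrnad1* on the opposite strand. Of the 78 genes 33 share exon sequence with another annotated gene and 16 have a near-identical copy. Among the copies that the matrix lists, only *Gm6578*, a transcribed copy of *Mrpl32*, had more than 15 counts in any library, with 233 and 235 in control oocytes against 170 and 131 in mutant oocytes. *Mrpl20*, the lowest gene by TPM, had 14, 8, 6 and 3 counts in the matrix in the same order of libraries and expected counts of 0, 2, 2 and 0, so its place in the order differs with the table.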
